A study of Mus musculus with 8 samples.

Results

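TREM2 is a lipid-sensing receptor on the surface of microglia, the resident macrophages of the brain. It has no signalling tail of its own and works through DAP12, a small membrane adaptor whose tyrosine motif, once phosphorylated, recruits the kinase SYK. SYK then acts on phospholipase C gamma and PI3-kinase, while lipid and protein phosphatases and some sialic acid-binding receptors of the Siglec family restrain the same path. The 8 genes described here encode the receptor (Trem2), the adaptors DAP12 (Tyrobp) and DAP10 (Hcst), the kinase (Syk), the phospholipase (Plcg2), the lipid phosphatase SHIP1 (Inpp5d) and the Siglec receptors CD33 (Cd33) and Siglec-H (Siglech). They were picked by symbol from the 53278 gene symbols of the count table, and all 8 were found and had enough counts to be tested.

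The libraries were made from total RNA of the whole forebrain of male C57BL/6J mice, for which the labels give an age of 10 to 20 weeks. The depleted group of 4 mice ate food containing PLX3397 for 9 days. This drug inhibits CSF1R, the receptor kinase that keeps microglia alive, and is known to act on some other kinases and to reach other macrophages as well. The control group of 4 mice ate control food. The labels number the samples of each group, though not every title has the word mouse. Each sample was read as a separate mouse, so SDs below are spreads between mice (n = 4 per group). In bulk tissue fewer cells of a type and less RNA per cell cannot be told apart.

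Total counts per library lay between 48455538 and 68406688, and levels are given as CPM, counts scaled to library size after correction between libraries. Neuron markers were abundant in both groups (summed 4320 to 6020 CPM in depleted and 4490 to 6310 CPM in control mice). All 12 microglia markers fell, with sums of 17.3 to 23.7 CPM in depleted and 262 to 316 CPM in control mice. The median marker kept 2.31% of its control mean. Hcrt, a neuropeptide gene of the hypothalamus, set the libraries apart: mice 2 and 3 of each group had at least 1249 Hcrt counts and mice 1 and 4 of each group at most 12. Below, mice with Hcrt reads are those with at least 100 Hcrt counts, and mice without are those with fewer, not with none. Markers of the striatum were also uneven, with a mean log2 CPM of 5.81 to 7.82 in depleted and 4.30 to 6.82 in control mice. The part of these differences in the results was not tested beyond the values given beside them.

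Of the 8 genes, 6 fell in depleted forebrains: Trem2, Tyrobp, Cd33 and Siglech to a few percent of the control level, and Syk and Inpp5d to 45.7% and 32.5% of it. Plcg2 and Hcst did not pass the test. Over the whole table, 1.11% of the 20140 genes tested were called lower and 0.0546% higher, at an adjusted p under 0.05 in edgeR's quasi-likelihood test. In 7 of the 8 genes, Hcst being the exception, the 4 depleted mice lay entirely below the controls, which held for 3.5% of all genes tested (2.28% lay entirely above). The median log2 fold change of the 8 genes was -2.82, beside a median of 0.00 over all genes.

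**Figure D1:**
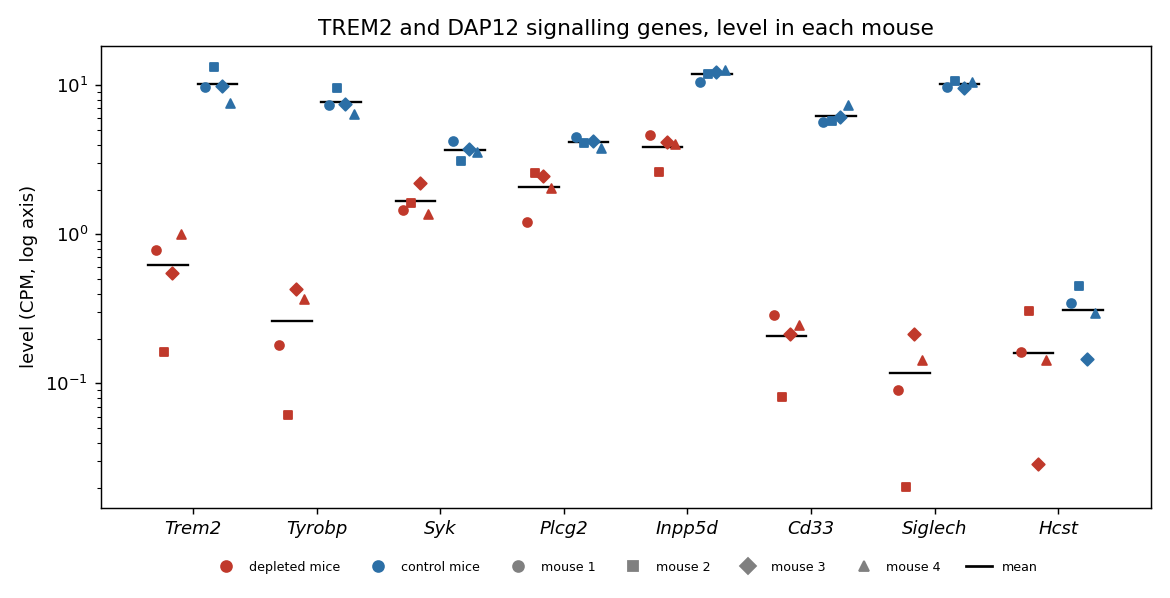
Level of each of the 8 genes in every mouse, in CPM on a log axis, with the depleted mice in red left of the control mice in blue, a marker shape for each mouse number and a bar at the group mean. The groups stand far apart for Trem2, Tyrobp, Cd33 and Siglech, lie closer for Syk, Plcg2 and Inpp5d, and overlap for Hcst.

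Trem2 (chromosome 17, 48346401 to 48354147, plus strand, mm10) had 0.780, 0.163, 0.548 and 1.01 CPM in depleted mice 1 to 4, against 9.81, 13.3, 9.92 and 7.60 CPM in control mice 1 to 4. The highest depleted mouse lay far below the lowest control mouse, and the depleted mice differed among themselves more, in proportion, than the control mice did. Their means were 0.625 ± 0.361 CPM in depleted and 10.1 ± 2.34 CPM in control mice. Trem2 fell by 4.02 on the log2 scale (SE 0.38, adjusted p = 3.37e-04 in edgeR), which left 6.15% of the control mean. The log2 fold change was -4.93 (SE 0.44) among the mice with at least 100 Hcrt counts and -3.28 (SE 0.26) among those with fewer, each 2 against 2. The difference between these values was not tested.

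Tyrobp (chromosome 7, 30413760 to 30417585, plus strand), the gene of the DAP12 adaptor, had 0.181, 0.0610, 0.433 and 0.370 CPM in depleted mice and 7.33, 9.64, 7.48 and 6.38 CPM in control mice. Depleted mouse 2 had 3 Tyrobp counts in all, and the 4 depleted mice together had 61, against 1621 in the controls. Tyrobp fell by 4.83 on the log2 scale (SE 0.38, adjusted p = 7.75e-05 in edgeR) to 3.39% of the control mean. Control mouse 2 was highest and control mouse 4 lowest for both Trem2 and Tyrobp. Among the depleted mice, mouse 2 was lowest for both, but mouse 4 was highest for Trem2 and mouse 3 for Tyrobp.

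The other adaptor gene of the set, Hcst (chromosome 7, 30417712 to 30419854, minus strand), encodes DAP10, which carries a PI3-kinase binding motif in place of the DAP12 tyrosine motif and is best known as the partner of the lymphocyte receptor NKG2D. It lies next to Tyrobp, tail to tail on the opposite strand with 126 bases between their annotated ends, and they share no annotated exon bases. Hcst was weak everywhere, with 9, 15, 2 and 7 counts in depleted mice and 19, 22, 8 and 16 counts in control mice. The groups overlapped, since depleted mice 1 and 2 stood above control mouse 3. On the log2 scale it stood at -1.0 (SE 0.56, adjusted p = 0.562 in edgeR), and the counting interval of what was left ran from 30.8% to 74.7% of the control level (95%, exact binomial on the summed counts). Such intervals cover counting error only. It stood at -0.60 without depleted mouse 3 and at -1.50 without depleted mouse 2. Hcst passed in none of the 18 alternative fits that could test it (adjusted p of 0.247 or more).

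Siglech (chromosome 7, 55768178 to 55778925, plus strand) encodes a mouse receptor of microglia and plasmacytoid dendritic cells that also signals through DAP12. It had 0.0907, 0.0203, 0.216 and 0.144 CPM in depleted mice, from 28 counts in all. The control mice had 9.70, 10.7, 9.65 and 10.5 CPM, the narrowest relative spread of the 8 genes (coefficient of variation 5.33%). Siglech fell by 6.33 on the log2 scale (SE 0.32, adjusted p = 9.38e-06 in edgeR), and 1.16% of the control mean was left. Markers of plasmacytoid dendritic cells summed to 3.97 to 5.15 CPM in depleted and 4.45 to 4.95 CPM in control mice. Most of that sum was Cox6a2, a gene of muscle mitochondria as well (3.82 and 4.08 CPM on average in depleted and control mice), so the list says little about those cells.

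Cd33 (chromosome 7, 43524216 to 43544428, minus strand) encodes a sialic acid-binding receptor that is inhibitory in humans. It had 0.290, 0.0814, 0.216 and 0.247 CPM in depleted mice, against 5.72, 5.75, 6.14 and 7.44 CPM in control mice. The groups were far apart, with depleted mouse 2 lowest. Cd33 fell by 4.88 on the log2 scale (SE 0.27, adjusted p = 1.01e-05 in edgeR) to 3.33% of the control mean. Control mouse 4, which had the least Trem2 and Tyrobp of the control group, had the most Cd33.

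The signalling enzymes downstream of the adaptor kept far more of their transcripts. Syk (chromosome 13, 52583173 to 52648792, plus strand), the kinase that docks on phosphorylated DAP12, had 1.45, 1.63, 2.22 and 1.38 CPM in depleted mice, against 4.22, 3.09, 3.73 and 3.59 CPM in control mice. Depleted mouse 3 came closest to the control group but stayed below its lowest member. Syk fell by 1.12 on the log2 scale (SE 0.18, adjusted p = 0.0130 in edgeR), and 45.7% of the control mean was left. Its call ended in 6 of 19 alternative fits, among them those without depleted mouse 1 (adjusted p = 0.0526), without depleted mouse 4 (0.0524) and without control mouse 3 (0.0520). With the striatum score as a covariate Syk stood at -1.03 (adjusted p = 0.235), at -0.82 (adjusted p = 0.798) among the mice with Hcrt reads and at -1.46 (adjusted p = 0.0472) among those without.

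Inpp5d (chromosome 1, 87620312 to 87720507, plus strand) encodes SHIP1, which removes a phosphate from the lipid that PI3-kinase makes and so damps the same path. It had 4.64, 2.62, 4.16 and 4.03 CPM in depleted mice, against 10.6, 12, 12.3 and 12.7 CPM in control mice. Depleted mouse 2 was again lowest, as it was for Trem2, Tyrobp, Cd33 and Siglech. Inpp5d fell by 1.62 on the log2 scale (SE 0.16, adjusted p = 4.53e-04 in edgeR) and kept 32.5% of the control mean. The call ended among the mice with Hcrt reads alone (-1.83, adjusted p = 0.0576), where only 2 mice stood against 2.

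Plcg2 (chromosome 8, 117498291 to 117635142, plus strand) encodes phospholipase C gamma 2, which cleaves a membrane lipid to release calcium-mobilising messengers. It had 1.22, 2.60, 2.45 and 2.04 CPM in depleted mice, against 4.51, 4.08, 4.26 and 3.79 CPM in control mice. The groups did not overlap, but here depleted mouse 2 was highest and mouse 1 lowest. On the log2 scale it stood at -1.0 (SE 0.21, unadjusted p = 9.42e-04), and it did not pass over all genes (adjusted p = 0.0738 in edgeR). It passed in 5 of 19 alternatives, with DESeq2 (adjusted p = 2.95e-04), limma-voom (0.0498), no filter (0.0313) and without depleted mouse 1 (-0.82, 0.0355) or mouse 2 (-1.12, 0.0322). Among the mice with Hcrt reads Plcg2 stood at -0.72 and among those without at -1.35, and neither passed.

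**Figure D2:**
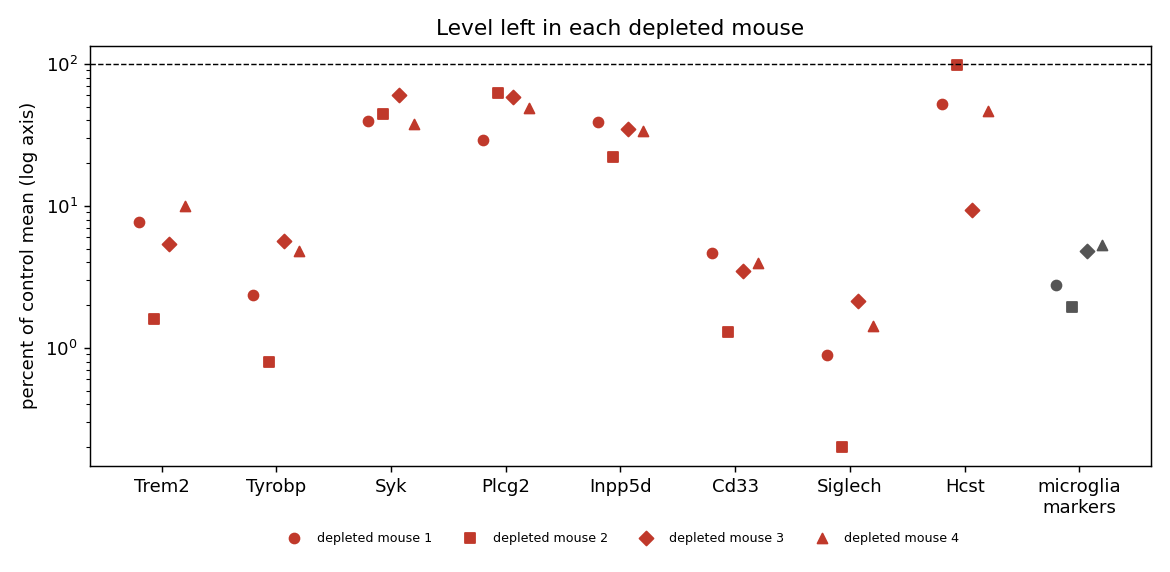
Level left in each depleted mouse as a percentage of the control mean, on a log axis, for the 8 genes in red and for the mean log2 level of the 12 microglia markers in grey, with the dashed line at the control mean. Trem2, Tyrobp, Cd33 and Siglech lie at or below 9.93% in every depleted mouse, whereas Syk, Plcg2 and Inpp5d lie at 22.1% or more.

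The 8 genes were therefore set against the microglia markers of the same mouse, by taking the log2 level of each gene minus the mean log2 level of the 12 markers. For Syk this difference averaged 1.52 ± 0.69 in depleted and -2.23 ± 0.30 in control mice (SD), a shift of 3.75 on the log2 scale. The shifts of Plcg2 (3.83), Inpp5d (3.24) and Hcst (3.92) were of like size, so the transcripts of these genes fell by less than the markers did or were not shown to fall. Siglech moved the other way, at -2.11 ± 0.38 in depleted and -0.76 ± 0.11 in control mice, a shift of -1.36. For these 5 genes the groups did not overlap (p = 0.0286 in an exact permutation test, two-sided). Its 70 arrangements of the mice allow nothing smaller. The adjusted permutation p was 0.0457 over the 8 genes, which rests on all 5 reaching that smallest p, the weak Hcst included. In depleted mice the marker mean itself stood at 1.93% to 5.28% of its control mean. A gene at an unchanged level would therefore separate as well. For Syk, Plcg2, Inpp5d and Hcst the test thus shows no more than a smaller change than that of the markers. The share over all genes was not computed. Trem2 shifted by 0.72 (exact p = 0.0857, adjusted p = 0.114), Cd33 by 0.11 (exact p = 0.80) and Tyrobp by -0.04 (exact p = 0.857), none beyond the spread between mice. Siglech in depleted mice and Hcst in both groups rest on few counts, and the added prior count of 2 weighs on both. With a prior count of 0.5 the shift of Siglech was -1.61 and that of Hcst 3.89, both with the same adjusted p.

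Against the shared adaptor the picture was alike. Relative to Tyrobp of the same mouse, Syk shifted by 3.79, Plcg2 by 3.88, Inpp5d by 3.28, Hcst by 3.96 and Siglech by -1.31 (exact two-sided permutation test, p = 0.0286 each, adjusted p = 0.0400 over 7 genes). The log2 ratio of Trem2 to Tyrobp was 1.15 ± 0.66 in depleted and 0.38 ± 0.09 in control mice (exact p = 0.114, adjusted p = 0.133). This ratio lay within 0.25 to 0.46 in control mice and within 0.32 to 1.90 in depleted mice. Depleted mice 1 to 4 had only 10, 3, 30 and 18 Tyrobp counts and 43, 8, 38 and 49 Trem2 counts. The part of counting error in the wider range was not tested. Cd33 shifted by 0.15 relative to Tyrobp (exact p = 0.743). These shifts share their denominators and are not independent of each other. Tyrobp itself kept 3.39% of its control mean and fell about as the markers did (shift -0.04). The shifts against Tyrobp are therefore no separate support for those against the markers, and a gene at an unchanged level would separate here as well. Their adjusted p again rests on all 5 genes reaching the smallest possible p.

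**Figure D3:**
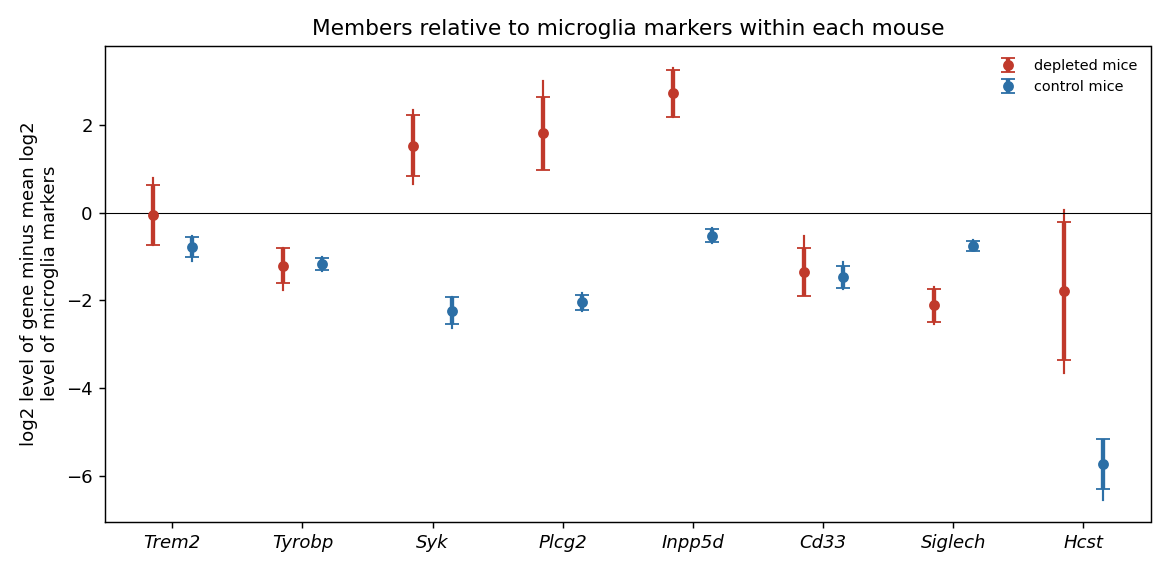
Log2 level of each gene minus the mean log2 level of 12 microglia markers of the same mouse, with depleted mice in red left of control mice in blue; points are means, thick capped bars SDs and thin lines the range over 4 mice. Syk, Plcg2, Inpp5d and Hcst lie higher in depleted mice, Siglech lies lower, and Trem2, Tyrobp and Cd33 overlap.

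Levels between genes were compared per kilobase of annotated exon (GENCODE M21, all isoforms joined), which understates genes with long rare isoforms. On this scale Tyrobp led in control mice at 11.6 ± 2.06 CPM per kb, followed by Siglech at 3.00 ± 0.160, Trem2 at 2.05 ± 0.472 and Inpp5d at 1.56 ± 0.121 CPM per kb. Plcg2 (0.968 ± 0.0707), Cd33 (0.805 ± 0.104), Hcst (0.430 ± 0.176) and Syk (0.391 ± 0.0497 CPM per kb) came after them. Of these neighbours, the ranges over control mice overlapped for Trem2 and Inpp5d, for Plcg2 and Cd33, and for Hcst and Syk. The order in depleted mice began with Inpp5d at 0.508 ± 0.114 and Plcg2 at 0.483 ± 0.145 CPM per kb, then Tyrobp at 0.392 ± 0.256. Below these came Hcst (0.222 ± 0.157), Syk (0.178 ± 0.0409), Trem2 (0.126 ± 0.0729), Siglech (0.0348 ± 0.0245) and Cd33 (0.0269 ± 0.0116 CPM per kb). Every pair of neighbours in the depleted order overlapped, so that order is not resolved gene by gene.

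The genes closest in pattern to Trem2 and Tyrobp were sought among the 13937 genes averaging 1 or more on the log2 CPM scale, as the root mean square difference over the 8 mice of log2 level relative to the control mean. P2ry12, a microglial purinergic receptor gene, came closest to Trem2 with a difference of 0.60, followed by Laptm5 (0.67), Mpeg1 (0.74), Tmem119 (0.77) and Selplg (0.81). The lysosomal protease gene Ctss came closest to Tyrobp (0.30), then Laptm5 (0.40), the complement gene C1qb (0.42), Selplg (0.43) and P2ry12 (0.45). Trem2 itself ranked 9 in closeness to Tyrobp (0.68). Inpp5d, Syk and Plcg2 ranked 27, 50 and 60, at differences of 2.38, 2.76 and 2.84. Tyrobp, Cd33, Siglech and Hcst averaged below 1 over the 8 mice. They were not among the genes compared, so their closeness to Trem2, or of the last 3 to Tyrobp, was not ranked.

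The promoter letters of the 8 genes were sought in RefSeq (GRCm38.p6, the build of mm10). Each window ran from 250 bases before to 50 after the annotated start. There were 8 windows for 7 of the genes, with 2 for Syk, and Tyrobp was not among them. The windows were searched on both strands for GAGGAA, the core of sites bound by PU.1, the main transcription factor of macrophages, whose reverse complement is TTCCTC. Windows of Trem2, Siglech, Inpp5d and Plcg2 are shown, the first pair as genes that fell steeply and the second as genes that kept more, each on its coding strand with that core in capitals.
Trem2, chr17:48346151-48346450, plus strand: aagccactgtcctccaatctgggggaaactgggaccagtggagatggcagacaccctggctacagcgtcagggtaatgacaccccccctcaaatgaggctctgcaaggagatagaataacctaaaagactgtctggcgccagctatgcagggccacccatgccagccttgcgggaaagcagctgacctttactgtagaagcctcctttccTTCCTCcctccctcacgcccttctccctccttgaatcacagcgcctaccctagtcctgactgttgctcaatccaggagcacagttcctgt
Siglech, chr7:55767934-55768233, plus strand: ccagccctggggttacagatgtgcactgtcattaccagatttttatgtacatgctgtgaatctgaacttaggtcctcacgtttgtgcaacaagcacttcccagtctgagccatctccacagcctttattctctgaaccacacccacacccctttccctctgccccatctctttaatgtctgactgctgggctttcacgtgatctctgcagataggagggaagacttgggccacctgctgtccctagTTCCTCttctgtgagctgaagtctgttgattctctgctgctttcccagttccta
Inpp5d, chr1:87620062-87620361, plus strand: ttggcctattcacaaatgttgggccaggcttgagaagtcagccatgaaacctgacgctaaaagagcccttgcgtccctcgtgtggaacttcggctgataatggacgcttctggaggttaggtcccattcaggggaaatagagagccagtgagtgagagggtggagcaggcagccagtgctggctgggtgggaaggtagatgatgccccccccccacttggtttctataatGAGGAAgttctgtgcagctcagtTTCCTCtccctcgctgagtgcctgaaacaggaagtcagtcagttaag
Plcg2, chr8:117498025-117498324, plus strand: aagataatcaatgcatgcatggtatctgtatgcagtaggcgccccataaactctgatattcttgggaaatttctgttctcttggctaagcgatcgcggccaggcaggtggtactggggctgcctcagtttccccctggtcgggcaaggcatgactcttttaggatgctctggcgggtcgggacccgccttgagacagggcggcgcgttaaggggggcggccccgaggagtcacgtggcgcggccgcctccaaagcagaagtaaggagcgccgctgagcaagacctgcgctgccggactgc
The core was found in 5 of the 8 windows, those of Trem2, Siglech, Cd33, Inpp5d and the second window of Syk, and in 28.3% of 32851 promoter windows of the same length. Its matches began at position -40 from the start in Trem2, -4 in Siglech, -9 in the second Syk window, and -20 and 4 in Inpp5d, while that of Cd33 lay at -226. The Cd33 window (chr7:43533122-43533421) lies inside the gene span given for Cd33 above. Its RefSeq start is thus not the outermost annotated start of GENCODE M21. Windows of Plcg2 and Hcst and the first window of Syk did not hold these letters. Inpp5d had 2 matches and Trem2 had 1, and the part of such matches in the levels was not tested. TGTGGT, the core of RUNX sites (reverse complement ACCACA), was found in the windows of Cd33 and Siglech and in 16.8% of all windows. CACGTG, an E-box that reads the same on both strands, was found in those of Plcg2 and Siglech and in 7.15% of all windows. These matches describe letters and do not show binding.

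Around the 8 genes, lists of 103 other pathway genes were followed, of which 76 had enough counts to be tested. Of those, 15 fell, none rose and 61 did not pass, with a median log2 fold change of -0.05 beside 0.00 over all genes. The share that fell was 19.7%, against 1.11% of all genes tested, and most members of the lists are expressed by many cell types. The 27 untested genes had at most 0.365 CPM in any mouse.

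Few receptors and adaptors of the same kind had enough counts to be tested. Of 5 other TREM genes only Treml2 could be tested, and it fell by 1.83 on the log2 scale (SE 0.35, adjusted p = 0.0394 in edgeR), at 0.0852 ± 0.0169 CPM in depleted and 0.310 ± 0.0977 CPM in control mice. That call rests on 19 and 65 counts and passed in 5 of 18 alternatives. Among 17 other receptors that pair with DAP12 or DAP10, 2 could be tested. Clec5a, a lectin receptor gene of myeloid cells, had 6 counts in depleted and 270 in control mice (log2 fold change -5.45, SE 0.50, adjusted p = 2.47e-04). It stood at -6.05 without depleted mouse 4. Csf1r, whose product can also signal through DAP12, fell by 5.57 on the log2 scale (SE 0.31, adjusted p = 1.01e-05), and 873 of its exon bases lie opposite those of Hmgxb3. Fcer1g, the gene of the Fc receptor gamma chain, another macrophage adaptor with a tyrosine motif like that of DAP12, fell by 4.10 (SE 0.33, adjusted p = 9.34e-05) and kept 5.62% of its control mean of 4.79 CPM. It was the only one of the 2 tested genes among 7 other adaptors with such a tyrosine motif to pass.

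Of the 7 other Siglec genes, 2 could be tested. Siglece, an inhibitory receptor gene of mouse myeloid cells, fell by 4.16 on the log2 scale (SE 0.40, adjusted p = 3.37e-04 in edgeR), with 7 counts in depleted and 127 in control mice. It stood at -4.76 without depleted mouse 3 and passed in 17 of 18 alternatives. Mag, the Siglec of myelin, had 294 ± 51.2 CPM in depleted and 212 ± 50.3 CPM in control mice and did not pass (0.47, SE 0.18, adjusted p = 0.393). Siglec and TREM genes belong to families of similar sequence, and how reads shared between relatives were counted is not stated in the labels. Of 6 tested genes for ligands of TREM2 and the proteases that shed it, none passed in edgeR, DESeq2 or limma-voom, and 1 had an unadjusted p under 0.05. Apoe, a lipoprotein gene chiefly of astrocytes, stood at 1280 ± 120 CPM in depleted and 1440 ± 198 CPM in control mice (log2 fold change -0.17, adjusted p = 0.659). Lpl, a lipase gene, stood at 0.32 (adjusted p = 0.453).

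Among 11 tested kinases next to Syk, 3 fell, of which a pair is described. Btk, a kinase of myeloid and B cells, fell by 4.05 on the log2 scale (SE 0.52, adjusted p = 0.00282 in edgeR), with 8 counts in depleted and 134 in control mice. Without depleted mouse 4 Btk stood at -5.04, and its call was lost in 2 of 18 alternatives, among the mice with Hcrt reads (-4.98) and among those without (-3.46). Lyn, a Src family kinase gene whose product phosphorylates such tyrosine motifs, fell as well (-1.59, SE 0.17, adjusted p = 6.74e-04). Lyn kept 33.3% of its control mean, close to the 32.5% of Inpp5d. Of 19 adaptors and exchange factors, Vav1 (-5.58, SE 0.38), Rac2 (-2.59, SE 0.29) and Lcp2 (-1.47, SE 0.25) fell. Vav1, the blood-cell form of an exchange factor for Rac proteins, kept 1.93% of its control mean, while Lcp2, the gene of the scaffold SLP-76, kept 36.2% and passed in 10 of 19 alternatives.

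Further down, 1 of 12 genes of PI3-kinase and AKT fell: Pik3cg, the catalytic subunit gene of leukocytes (-2.60, SE 0.23, adjusted p = 1.72e-04 in edgeR), at 0.398 ± 0.120 CPM in depleted and 2.42 ± 0.306 CPM in control mice. Of 13 genes around phospholipase C gamma and its calcium output, Card9 fell (-0.59, SE 0.12, adjusted p = 0.0448), a call that held in 5 of 19 alternatives. Of 8 phosphatase genes, Ptpn6, which encodes SHP-1, fell by 2.22 on the log2 scale (SE 0.16, adjusted p = 4.42e-05), and Ptprc, which encodes CD45, by 2.65 (SE 0.40, adjusted p = 0.00807). Lyn, Lcp2, Card9 and Ptpn6 share some exon bases with a gene on the opposite strand, and the strand setting of the counting is not given in the sources used here.

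**Figure D4:**
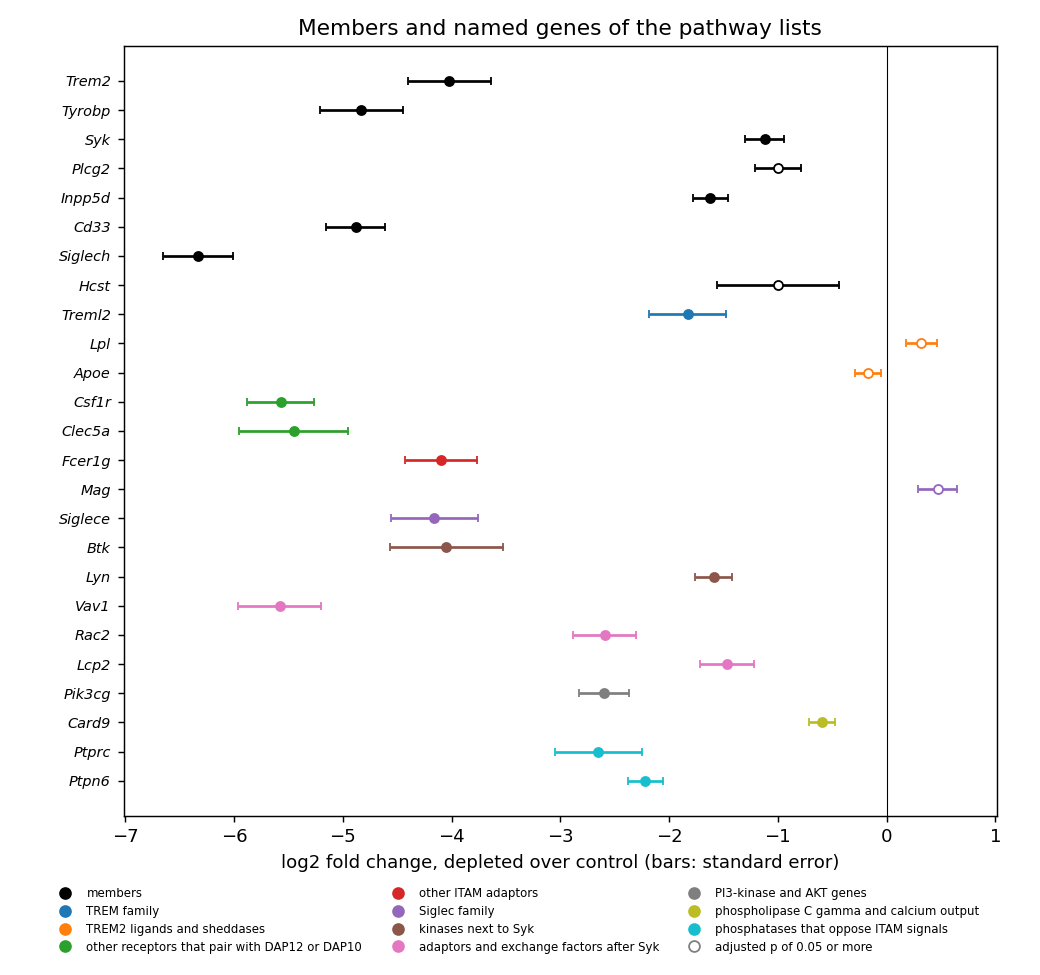
Log2 fold change, depleted over control, of the 8 genes (black) and of the pathway genes described in the text (coloured by list), with standard errors as bars and open circles where the adjusted p was 0.05 or more. Siglech, Vav1, Csf1r and Clec5a lie below -5, Syk, Plcg2, Inpp5d, Lyn and Lcp2 lie between -1.62 and -1.0, and Lpl and Mag lie above 0.

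Close relatives of the enzymes, named here outside the rule, did not pass. Plcg1, the widely expressed relative of Plcg2, had 113 ± 6.36 CPM in depleted and 121 ± 4.29 CPM in control mice (log2 fold change -0.09, SE 0.06, adjusted p = 0.613 in edgeR). Inppl1, which encodes SHIP2, stood at 0.23 (SE 0.08, adjusted p = 0.346), with 40.2 ± 4.09 and 34.4 ± 1.52 CPM in depleted and control mice. Zap70, the Syk relative of T cells, stood at -0.49 (SE 0.17, adjusted p = 0.343), with 2.60 ± 0.471 and 3.64 ± 0.549 CPM in depleted and control mice.

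Lists of markers of other cells, some of which can express Syk, Plcg2, Inpp5d or Hcst, were measured beside them, and the part of those cells in the results was not tested. The 5 B cell markers summed to 0.381 to 1.93 CPM in depleted and 0.758 to 2.21 CPM in control mice, and the 7 T and NK cell markers to 0.163 to 0.244 CPM and 0.166 to 0.512 CPM. Of these lists only Ncr1, in control mice, was at 0 in a whole group. The 7 monocyte and neutrophil markers summed to 0.309 to 0.693 CPM in depleted and 0.420 to 1.32 CPM in control mice. Of 7 border macrophage markers, 3 of 5 tested fell (Mrc1, F13a1 and Stab1), with sums of 2.99 to 5.80 CPM in depleted and 12.4 to 17.3 CPM in control mice. Most of the control sum was Stab1 (2.18 and 11.7 CPM on average in depleted and control mice). The fall of the sum is therefore chiefly that of Stab1. Mrc1 and F13a1 were weak, with control means of 0.513 and 0.393 CPM, of which 18.4% and 20.6% were left. Cd163, a scavenger receptor gene of the same list, stood the other way at 2.15 ± 1.05 CPM in depleted and 0.956 ± 0.466 CPM in control mice and did not pass (1.18, SE 0.45, adjusted p = 0.380 in edgeR). Lyve1 did not pass at -0.58. The 5 endothelial markers summed to 106 to 129 CPM in depleted and 105 to 143 CPM in control mice, and none of them passed. Of 5 oligodendrocyte precursor markers 3 fell, Pdgfra to 50.6%, Cspg4 to 55.1% and Matn4 to 49.8% of their control means. C1ql1 (-0.67) and Gpr17 (0.60) did not pass, and the list summed to 108 to 139 CPM in depleted and 134 to 159 CPM in control mice.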

How the data were processed

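Whole forebrain RNA of 8 mice was sequenced, 4 per group. The authors deposited 1 table of raw counts, whole numbers listed by gene symbol. Per the submitters' processing notes STAR, FastQC, MultiQC, DESeq2 and DESeq were used with mm10; of versions, annotation, strandedness and kit nothing is stated there. Of its 53278 symbols 93.3% matched GENCODE M21, which gave coordinates and exon lengths.

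Genes were filtered with filterByExpr (20140 kept), scaled by TMM and tested with edgeR 4.0.16 (glmQLFit, glmQLFTest; R 4.3.3), depleted over control, without covariates. P-values were adjusted over all genes tested (Benjamini-Hochberg, threshold 0.05); standard errors are the fold change over the root of F. For log2 CPM the prior count was 2. The biological coefficient of variation was 16.1%. Libraries of a group differed by at least 12.3 times the counting noise per gene, so each was counted once. Simulated counts for this comparison (20140 genes, 50 changed per size) returned 50 genes at a log2 change of -4, 45 at -2 and 32 at -1, with 7 false among 169 calls.

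The genes and lists were chosen with earlier results of these data known. Besides all 8 members, up to 4 genes per list past the threshold (or the 2 with the smallest p) and all tested TREM and Siglec genes are named. Alternatives used DESeq2 1.42.0, limma-voom 3.58.1, other scalings and filters, a striatum or Hcrt term, the replicate number as a block, and each mouse left out. Fits within mice with or without at least 100 Hcrt counts were added after seeing the data. Replicate numbers did not pair the samples. Results of some listed genes are not reported here.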

Additional observations from a re-analysis of the deposited data

How the results depend on the processing

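The calls of Trem2, Tyrobp, Cd33 and Siglech held in all 19 alternatives, and the number of the 8 genes called lower ranged from 4 (mice with Hcrt reads) to 7. Syk lost its call with the replicate number as a block (-1.14), with the striatum score as a covariate (-1.03), among mice with Hcrt reads (-0.82), and without each of 3 single mice; over single mice left out it ranged from -1.30 to -1.05. Inpp5d lost it among mice with Hcrt reads (-1.83). Plcg2 gained a call without a filter (-1.01), in DESeq2 (-1.0) and in limma-voom (-1.05), and ranged from -1.12 to -0.82 over single mice left out. Hcst ranged from -1.50 to -0.60 over single mice left out and could not be tested at 1 CPM in 4 samples. The cause of these changes was not tested, though fits within the Hcrt split hold only 4 mice.

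Over the whole table, the 223 lower genes became 349 in DESeq2 and 66 among mice with Hcrt reads, and ranged from 178 to 441 over single mice left out, with 441 without depleted mouse 2. The 11 higher genes became 25 without a filter, 6 at 1 CPM in 4 samples, 4 under the replicate block, 125 in DESeq2, 2 with the striatum score, 0 among mice with Hcrt reads (by edgeR) and 128 among those without, and ranged from 2 to 243 over single mice left out. Pathway genes called lower were 5, in place of 15, among mice with Hcrt reads.

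The replicate numbers were taken as a block although same-numbered mice did not deviate together (r = -0.28, -0.29, 0.60 and -0.08). Paired by number, 4 pairs cannot give an exact p below 0.125, so every called shift lost its call there by construction, at unchanged size: against the microglia markers 3.75 (Syk), 3.83 (Plcg2), 3.24 (Inpp5d), 3.92 (Hcst) and -1.36 (Siglech), and against Tyrobp 3.79, 3.88, 3.28, 3.96 and -1.31. Leaving out 1 control mouse also ended these calls, at adjusted p of 0.05 to 0.0914. Over single mice left out, shifts against the markers ranged from 3.48 to 4.04 (Syk), 3.43 to 4.03 (Plcg2), 3.04 to 3.42 (Inpp5d), 3.31 to 4.54 (Hcst), -1.50 to -1.22 (Siglech) and 0.44 to 0.95 (Trem2, which passed without depleted mouse 2). Tyrobp (-0.18 to 0.14, positive without depleted mouse 2 and, at 0.01, without control mouse 2) and Cd33 (-0.16 to 0.22, negative without depleted mouse 1) changed sign around 0. Against Tyrobp the ranges were 3.34 to 4.10 (Syk), 3.29 to 4.10 (Plcg2), 3.00 to 3.53 (Inpp5d), 3.17 to 4.72 (Hcst), -1.40 to -1.21 (Siglech), 0.52 to 1.05 (Trem2, which passed without depleted mouse 3) and -0.09 to 0.40 (Cd33, negative without depleted mouse 1). Siglech in depleted mice (28 counts) and Hcst (33 and 65 counts) are limited by depth, as is Tyrobp in depleted mice (61 counts).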
